A study of Mus musculus with 7 samples.

Results

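The *Cphx* homeobox cluster of mouse chromosome 14 was examined in whole colon tumors. The cluster was defined as the rows of the deposited table whose Ensembl identifiers carry the symbols *Cphx1*, *Cphx2* and *Cphx3*, which gave 3 genes of 43346. The genes were chosen by their log2 differences between the groups in earlier results of the same comparison, which pointed in opposite directions, so their differences between groups are given here as a description, with no p, and support nothing.

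Homeobox genes encode transcription factors that bind DNA through a homeodomain. The *Cphx* genes (cytoplasmic polyadenylated homeobox) are known from maturing oocytes and the preimplantation embryo, not as genes of the gut. *Dnmt3a* encodes a de novo DNA methyltransferase, and mutation of it in blood stem cells is frequent in clonal hematopoiesis.

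The study asked how a hematopoietic system lacking 1 *Dnmt3a* copy alters colitis-associated colon cancer. Donor BM was Dnmt3a(+/-) in 4 animals and Dnmt3a(+/+) in 3, and all donors carried *Mx1*-Cre, an interferon-inducible deleter that was switched on with poly(I:C) before BM harvest. All recipients were wild-type mice, given as C57BL6/J and 8 weeks old in the labels and as congenic CD45.1 animals of a somewhat younger age in the study's methods, that received 1 injection of azoxymethane (AOM, 10 mg/kg) and then 3 cycles of 3% dextran sulfate sodium (DSS), each of 1 week with 2 weeks off between them. The tumor epithelium and most stroma therefore came from wild-type hosts in both groups, and only blood-derived cells differed in genotype. Tumors 1 and 2 of each group came from transplantation experiment BMT18. Dnmt3a(+/+) tumor 3 and Dnmt3a(+/-) tumors 3 and 4 came from BMT8.

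Total counts ranged from 38472738 to 64314999 per tumor. Levels are given as CPM, counts scaled to a common library size with edgeR's TMM factors, and 3 counts corresponded to 0.0468 to 0.0918 CPM. The targeted gene is no check of these labels, since wild-type host cells also express it: *Dnmt3a* lay between 20.3 and 24.3 CPM in the Dnmt3a(+/+) group and between 22.0 and 43.0 CPM in the Dnmt3a(+/-) group. The 10 colon epithelium markers were all detected, summing to 12420 to 23140 CPM against 7964 to 15130 CPM. The 5 fibroblast markers summed to 148 to 293 CPM against 223 to 988 CPM, and the 5 endothelial markers to 9.03 to 17.6 CPM against 18.12 to 107 CPM, with the highest values of both lists in Dnmt3a(+/-) tumor 2. The 5 leukocyte markers summed to 31.4 to 81.2 CPM against 30.6 to 128 CPM. Of these marker genes, edgeR called 0 of 25 (0% of all genes tested). At an unadjusted p under 0.05 by edgeR there were 7 of the 25, a larger share than the 11.03% of all genes tested. These were 4 endothelial, 2 epithelial and 1 fibroblast markers. The 2 epithelial ones, the intestinal transcription factors *Cdx1* and *Cdx2*, went opposite ways. In the Dnmt3a(+/-) group *Cdx1* was lower (log2 difference -1.15, SE 0.28) and *Cdx2* higher (0.79, SE 0.29). DESeq2 called 3 endothelial markers higher (1.54% of all genes) and *Cdx1* lower (0.358% of all genes).

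In the GENCODE M21 annotation of GRCm38, *Cphx1* (ENSMUSG00000095975) spans chr14:25938304-25956356, *Cphx2* (ENSMUSG00000098463) spans chr14:26081516-26096127 and *Cphx3* (ENSMUSG00000094817) spans chr14:26082297-26235744, all on the plus strand. The annotated span of *Cphx3* overlaps *Cphx2*, because its transcript Cphx3-201 begins inside the first exon of *Cphx2* and ends in the last exon of *Cphx3*. The start codon of *Cphx2* lies 139.8 kb from that of *Cphx1*, and that of *Cphx3* a further 139.6 kb away. Each gene has a coding transcript of 4 exons, Cphx1-204 of 1649 bases, Cphx2-201 of 1710 bases and Cphx3-202 of 1714 bases.

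The coding sequence of 549 bases, stop codon included, is the same letter for letter in the 3 genes, and its first 300 bases are shown because no read inside them can tell the copies apart. The capitals mark the 2 bases around each exon border, and the coding parts of the 4 exons measure 13, 203, 117 and 213 bases before the stop codon.

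Cphx1, Cphx2 and Cphx3, start of the coding sequence: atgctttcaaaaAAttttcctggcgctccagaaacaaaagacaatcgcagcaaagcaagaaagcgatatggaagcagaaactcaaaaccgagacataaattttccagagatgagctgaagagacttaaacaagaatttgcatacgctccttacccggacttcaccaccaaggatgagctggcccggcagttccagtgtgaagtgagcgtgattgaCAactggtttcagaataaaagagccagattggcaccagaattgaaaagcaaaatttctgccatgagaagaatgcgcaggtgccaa

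The identity extends through the whole mature RNA. Cphx1-204 is an exact part of Cphx2-201, which adds 47 bases at the 5′ end and 14 at the 3′ end, and Cphx2-201 is an exact part of Cphx3-202, which adds 4 bases at the 3′ end. The number of differing bases within the common part was 0. The ends are shown because they are where the coding transcripts differ. In the first set, the last 12 bases of Cphx1-204 are in lower case and the bases that the longer transcripts add after them are in capitals.

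Cphx1-204, 3′ end: gaataaaagata
Cphx2-201, 3′ end: gaataaaagataTTAACTTCCAAACC
Cphx3-202, 3′ end: gaataaaagataTTAACTTCCAAACCAAAA

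In the second set, the first 12 bases of Cphx1-204 are in lower case, and the capitals are the 18 bases that precede them in the longer transcripts.

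Cphx1-204, 5′ end: tatttctctctt
Cphx2-201, around the same position: TCAGTAACCAGAAAAAGTtatttctctctt
Cphx3-202, around the same position: TCAGTAACCAGAAAAAGTtatttctctctt

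The RefSeq promoter windows of the genes, 300 bases around each annotated start in GRCm38.p6, were alike too. Those of *Cphx2* and *Cphx3* matched at 300 of 300 bases, and that of *Cphx1* matched both at 296 of 296 aligned bases with an offset of 4 bases.

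Reads of this study were paired and 100 bases long, so the annotated transcripts were cut into all distinct words of 100 bases (100-mers) and each word was looked up in every other annotated gene on both strands. *Cphx3* had 1723 such words, of which 99.8% also occurred in *Cphx1* or *Cphx2* and 4 occurred in it alone. *Cphx2* had 1944 words, 88.4% of them shared, and *Cphx1* had 2110 words, 78.6% of them shared. No word of the cluster occurred in a gene outside it. The words found only in *Cphx1* lay in a retained-intron transcript (363 words) and a noncoding transcript (89 words), and the 225 words found only in *Cphx2* lay in a noncoding transcript. The coding transcripts Cphx1-204 and Cphx2-201 had 0 words of their own. The deposited counts are RSEM estimates, in which a read that matches several genes is divided among them by a model, so a count of a single *Cphx* gene rests almost wholly on that division whenever the RNA is spliced and coding. The annotation release behind the counts is not given in the sources used here, and 8 of 49 M21 genes around the cluster have no row in the table, so the transcripts counted may differ from those compared here.

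**Figure D1:**
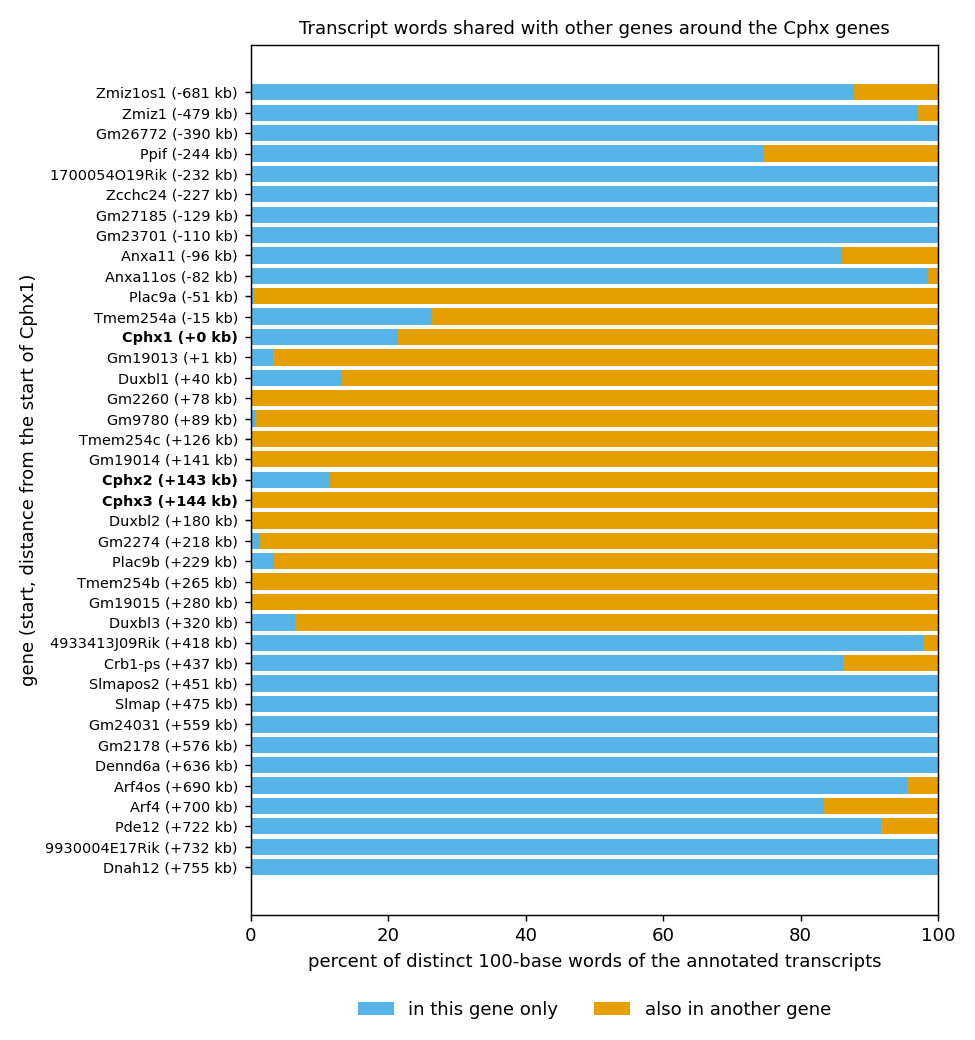
Genes with a row in the table around the *Cphx* cluster, ordered by start position in kb from the start of *Cphx1* (vertical axis), with the percent of their distinct 100-base words found in that gene only (blue) or also in another gene (orange). *Cphx1*, *Cphx2* and *Cphx3* (bold) keep 21.4%, 11.6% and 0.232% of their words to themselves, and genes farther out keep most of theirs.

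*Cphx3* was the main *Cphx* row in the Dnmt3a(+/+) tumors and also in Dnmt3a(+/-) tumors 2 and 4, and its level was low in the Dnmt3a(+/-) tumors. Its counts were 436, 839 and 59 in Dnmt3a(+/+) tumors 1 to 3 and 22, 66, 22 and 44 in Dnmt3a(+/-) tumors 1 to 4. On the CPM scale these were 11.7, 13.1 and 1.81 against 0.549, 1.35, 0.447 and 1.19. The groups did not overlap, but the third Dnmt3a(+/+) tumor stood much nearer to the Dnmt3a(+/-) tumors than to the other two of its group. All Dnmt3a(+/-) tumors lay below all Dnmt3a(+/+) tumors in 6.32% of the 15810 genes tested, and the separation of *Cphx3* was not kept with CPM on total counts alone, where the lowest Dnmt3a(+/+) tumor had 1.53 CPM and the highest Dnmt3a(+/-) tumor 1.62 CPM. The means were 8.87 ± 6.16 CPM (SD, n = 3) and 0.883 ± 0.451 CPM (SD, n = 4), a ratio of 10.1 of Dnmt3a(+/+) to Dnmt3a(+/-), with a fitted log2 difference of -3.33 (SE 0.72). In bulk tumors, fewer cells of a type and less RNA per cell cannot be told apart.

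*Cphx1* went the other way. Its counts were 2, 9 and 0 in the Dnmt3a(+/+) tumors and 100, 4, 149 and 17 in the Dnmt3a(+/-) tumors. Its levels were 0.0537, 0.141 and 0 CPM against 2.50, 0.0815, 3.03 and 0.460 CPM. Dnmt3a(+/-) tumors 1 and 3 held nearly all of the signal, and tumor 2 lay within the Dnmt3a(+/+) range, so the groups overlapped. All Dnmt3a(+/-) tumors lay above all Dnmt3a(+/+) tumors in 6.12% of the genes tested, and *Cphx1* was not among them. The means were 0.0648 ± 0.0709 CPM (SD, n = 3) and 1.52 ± 1.46 CPM (SD, n = 4), a 23.4-fold ratio with a fitted log2 difference of 4.36 (SE 1.43). The SD of the Dnmt3a(+/-) group was about as large as its mean.

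*Cphx2* was counted in 1 tumor only. It had 25 counts (0.765 CPM) in Dnmt3a(+/+) tumor 3, which is also the tumor with the low *Cphx3* value of its group, and 0 counts in the other 6 tumors. It did not pass the filter on low counts. Set against a floor of 3 counts over the whole Dnmt3a(+/-) group, the counted level was at least 10.9-fold lower than in the Dnmt3a(+/+) group. This bound rests on that 1 tumor. It covers neither the error of the 25 counts nor the division of shared reads. The coding transcript Cphx2-201 has 0 words of its own, so 0 counts need not mean absent RNA. Without Dnmt3a(+/+) tumor 3 both groups were at 0 counts and no fold can be given.

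**Figure D2:**
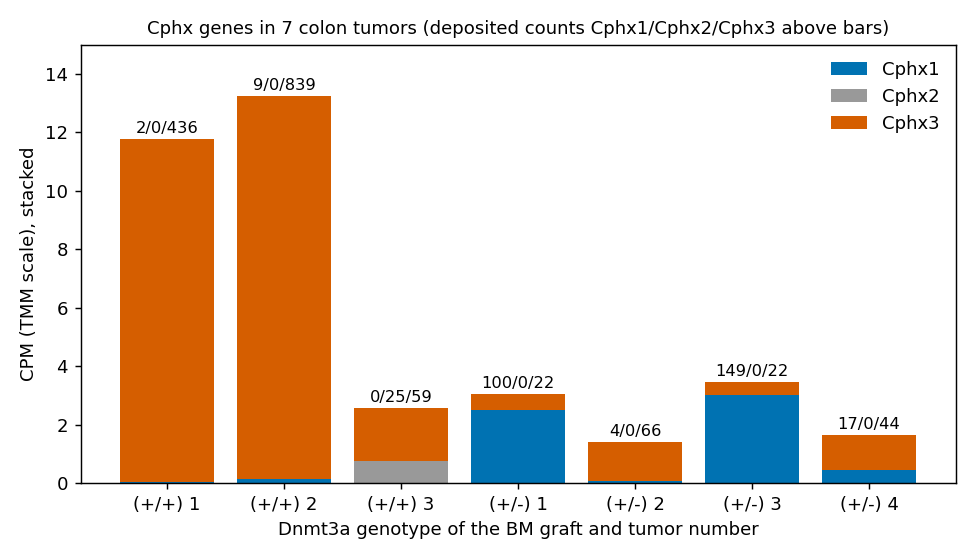
CPM on TMM library sizes (vertical axis, stacked) of *Cphx1* (blue), *Cphx2* (grey) and *Cphx3* (orange) in each of the 7 tumors, with the deposited counts above each bar. The first 2 Dnmt3a(+/+) tumors stand at 11.8 and 13.2 CPM, nearly all of it *Cphx3*, and Dnmt3a(+/+) tumor 3 at 2.57 CPM, mostly *Cphx3*. The bars of Dnmt3a(+/-) tumors 1 and 3 are mostly *Cphx1*, and those of Dnmt3a(+/-) tumors 2 and 4 mostly *Cphx3*.

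The comparison of all genes gave 0 calls among 15810 tested with edgeR's quasi-likelihood test (0% called at a Benjamini-Hochberg adjusted p under 0.05 and an absolute log2 difference over 1). At an unadjusted p under 0.05 there were 1744 genes, and the lowest adjusted p was 0.361. Accordingly 0 of the 2 *Cphx* genes that passed the filter were called by edgeR, and *Cphx1* passed it only through the Dnmt3a(+/-) group. DESeq2 called 302 of 15936 genes (1.9%), of which 245 were higher (1.54%) and 57 lower (0.358%) in the Dnmt3a(+/-) group, and both *Cphx1* and *Cphx3* were among its calls, at log2 differences of 4.47 (SE 1.21) and -3.32 (SE 0.67). Since this comparison also chose the genes, nothing further is read from these calls.

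Because reads can be moved between the copies without changing their total, the 3 rows were also added together. The sums were 438, 848 and 84 counts in the Dnmt3a(+/+) tumors and 122, 70, 171 and 61 counts in the Dnmt3a(+/-) tumors. In CPM the sums were 11.8, 13.2 and 2.57 against 3.04, 1.43, 3.47 and 1.65. The groups now overlapped, with Dnmt3a(+/+) tumor 3 below Dnmt3a(+/-) tumors 1 and 3. The mean of the sum was 9.19 ± 5.78 CPM (SD, n = 3) against 2.40 ± 1.01 CPM (SD, n = 4), a ratio of 3.83 and a fitted log2 difference of -1.94 (SE 0.59). The opposite directions of *Cphx1* and *Cphx3* thus became a single lower total in the Dnmt3a(+/-) group, carried by Dnmt3a(+/+) tumors 1 and 2.

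**Figure D3:**
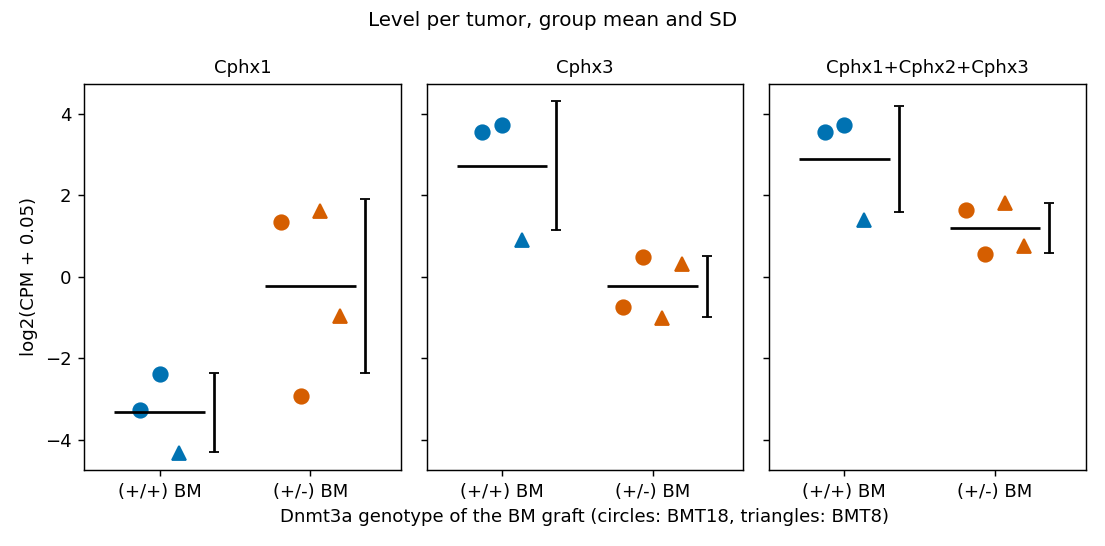
Level of *Cphx1*, *Cphx3* and the sum of the 3 genes as log2(CPM + 0.05) (vertical axis) by group, with 1 symbol per tumor, circles for experiment BMT18 and triangles for BMT8, a line at the mean of the log2 values and a bar of 1 SD. *Cphx1* and the sum overlap between groups, and the Dnmt3a(+/+) triangle lies near the Dnmt3a(+/-) symbols for *Cphx3* and the sum.

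The split of the sum among the copies differed widely between tumors of the same group. *Cphx1* took 0.457%, 1.06% and 0% of the sum in the Dnmt3a(+/+) tumors, where 0 of 84 counts allows a share of up to 4.37% (upper limit of the Wilson 95% interval). In the Dnmt3a(+/-) tumors it took 82.0% (Wilson 95% interval 74.2 to 87.8), 5.71% (2.24 to 13.8), 87.1% (81.3 to 91.4) and 27.9% (18.19 to 40.2). Tumors 1 and 3 of the Dnmt3a(+/-) group were high and tumors 2 and 4 low. The intervals and limits cover counting error only, not the error of dividing shared reads, which the table does not give. *Cphx3* took 99.5%, 98.9% and 70.2% against 18.03%, 94.3%, 12.9% and 72.1%. *Cphx2* took 29.8% (21.04 to 40.3) of the sum in Dnmt3a(+/+) tumor 3.

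Per kb of coding transcript, the order of the copies changed from tumor to tumor. *Cphx3* stood above *Cphx1* in all 3 Dnmt3a(+/+) tumors, at 6.83, 7.64 and 1.05 CPM per kb against 0.0326, 0.0852 and 0. In Dnmt3a(+/-) tumors 1 and 3 *Cphx1* stood above *Cphx3*, at 1.51 and 1.84 CPM per kb against 0.320 and 0.261. In Dnmt3a(+/-) tumors 2 and 4 the order was again *Cphx3* above *Cphx1*, at 0.785 and 0.694 CPM per kb against 0.0494 and 0.279.

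The experiments differed in how far the total was lower. In BMT18, with 2 tumors a group, the sum averaged 12.5 CPM with Dnmt3a(+/+) BM and 2.24 CPM with Dnmt3a(+/-) BM, a ratio of 5.60. In BMT8, with 1 Dnmt3a(+/+) and 2 Dnmt3a(+/-) tumors, it was 2.57 CPM against a mean of 2.56 CPM, so the lower total was seen in 1 of the 2 experiments. The means of *Cphx3* and *Cphx1* kept their directions in both, while *Cphx2* was at 0 in both groups of BMT18. The *Cphx1* mean with Dnmt3a(+/-) BM in BMT18 rested on tumor 1, at 2.50 CPM. Dnmt3a(+/-) tumor 2, at 0.0815 CPM, lay between the 2 Dnmt3a(+/+) tumors of that experiment. *Cphx3* averaged 12.4 against 0.947 CPM in BMT18 and 1.81 against 0.818 CPM in BMT8, and *Cphx1* averaged 0.0971 against 1.29 CPM in BMT18 and 0 against 1.74 CPM in BMT8. Whether the experiments differ was not tested.

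Leaving out a tumor kept each direction. The mean ratio of *Cphx1* in Dnmt3a(+/-) over Dnmt3a(+/+) tumors ranged from 15.6 without Dnmt3a(+/+) tumor 3 or Dnmt3a(+/-) tumor 3 to 56.4 without Dnmt3a(+/+) tumor 2. That of *Cphx3* in the other direction ranged from 7.66 without Dnmt3a(+/+) tumor 2 to 14.1 without Dnmt3a(+/+) tumor 3, and that of the sum from 2.99 to 5.22 with the same tumors left out. Without Dnmt3a(+/-) tumor 2, where the fibroblast and endothelial markers were highest, the ratios were 30.8 for *Cphx1*, 12.2 for *Cphx3* and 3.38 for the sum. The part of these marker levels in the *Cphx* values was not tested.

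The *Cphx* genes lie in a stretch in which other genes are copied as well. Within 500 kb of the cluster the table holds 38 other genes, of which 10 were at 0 in every tumor and 19 passed the filter. Around each *Cphx* copy the same kinds of gene recur, a *Tmem254* gene (encoding a transmembrane protein), a *Plac9*-like gene, a *Duxbl* gene (a double homeobox gene), and *Anxa11* (annexin A11, a calcium-dependent phospholipid-binding protein) or a pseudogene of it, *Gm2260* or *Gm2274*. The share of 100-mers of their own varied within each family. It was 13.1%, 0% and 6.47% for *Duxbl1*, *Duxbl2* and *Duxbl3*, and 26.4% for *Tmem254a* against 0% for both *Tmem254b* and *Tmem254c*. It was 0.344%, 0.614% and 3.46% for *Plac9a*, *Gm9780* and *Plac9b*, and 86.0% for *Anxa11* against 0% and 1.37% for *Gm2260* and *Gm2274*. *Tmem254a* and *Tmem254b* had the same count in each of the 7 tumors, from 2308 to 4762, as did the pseudogenes *Gm19014* and *Gm19015*, at 0 to 2 counts. Pseudogene *Gm19013* lies on the minus strand inside the span of *Cphx1* and was at 0 in every tumor, and whether the counting used strand is not given in the sources used here.

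The *Duxbl* counts, like the *Cphx* counts, sat on different copies in different tumors. *Duxbl1* had 0, 2 and 11 counts in the Dnmt3a(+/+) tumors and 0, 37, 0 and 9 in the Dnmt3a(+/-) tumors. *Duxbl2* had 22, 18 and 0 counts against 2, 1, 31 and 2, and *Duxbl3* had 2, 0 and 0 counts against 48, 1, 2 and 0. In each of the 7 tumors 1 *Duxbl* row thus held most of the family's counts, but which row it was differed between tumors of the same group. Their sum was 24, 20 and 11 counts against 50, 39, 33 and 11. In CPM the sum was 0.431 ± 0.185 (SD, n = 3) against 0.752 ± 0.392 (SD, n = 4), with a log2 difference of 0.81 (SE 0.58, edgeR with Benjamini-Hochberg adjustment, adjusted p = 0.632). The mean *Duxbl* total thus lay on the other side from the mean *Cphx* total, without passing the threshold.

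The *Plac9*-like and *Tmem254* families, which had more counts, had narrower ranges of shares. The share of each *Plac9*-like gene in its family's counts ranged over at most 15.5 percentage points among the 7 tumors, and that of each *Tmem254* gene over at most 17.7 points. For *Cphx1* and *Cphx3* these ranges were 87.1 and 86.7 points. In the *Anxa11* family, the share of *Gm2274* ranged from 3.30% to 52.8%. That family had 5841 to 18590 counts per tumor, beside 7293 to 18461 for the *Tmem254* family, and fewer than it in most tumors. These ranges were not compared by a test, and the families differ in depth, since no tumor had more than 848 *Cphx* or 50 *Duxbl* counts.

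**Figure D4:**
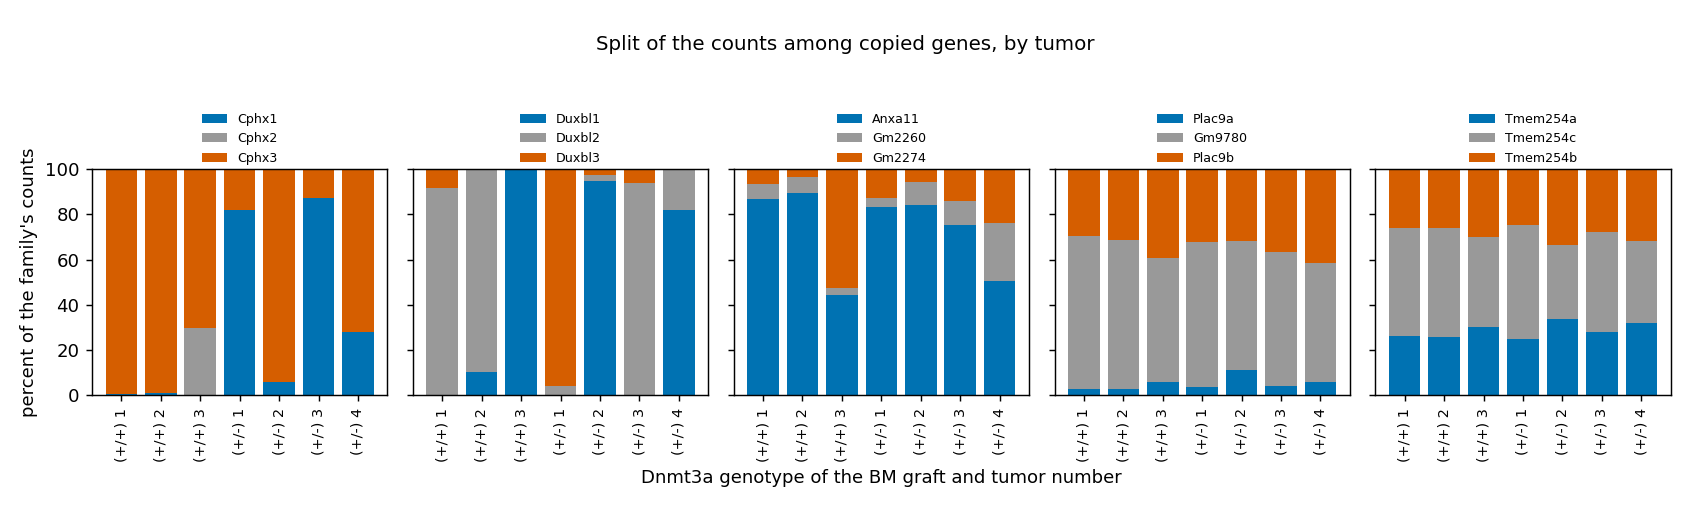
Percent of a family's counts assigned to each copy (vertical axis, stacked to 100) in each of the 7 tumors, for the *Cphx*, *Duxbl*, *Anxa11*, *Plac9* and *Tmem254* families. *Cphx1* ranges from 0% to 87.1% and *Duxbl1* from 0% to 100%, whereas *Tmem254a* stays between 24.6% and 33.5%.

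Among the 19 tested genes around the cluster, 15 were lower and 4 higher in the Dnmt3a(+/-) group, with log2 differences from -1.25 to 0.69 and a median of -0.31 beside 0.00 over all genes tested. None was called by edgeR or DESeq2, against 0% and 1.9% of all genes, and 2 of the 19 had an unadjusted p under 0.05, near the 11.03% of all genes tested. These were *Ppif*, encoding cyclophilin D of the mitochondrial permeability transition pore, with a log2 difference of -0.86 (SE 0.22, edgeR with Benjamini-Hochberg adjustment, adjusted p = 0.361), and the *Plac9*-like gene *Gm9780*, with -1.25 (SE 0.38, adjusted p = 0.383). *Ppif* lay at 60.7, 75.5 and 43.1 CPM in the Dnmt3a(+/+) tumors and at 36.9, 33.3, 35.3 and 26.1 CPM in the Dnmt3a(+/-) tumors. These did not overlap, as in 6.32% of all genes tested, but on total counts alone they did, with a lowest Dnmt3a(+/+) value of 36.4 CPM and a highest Dnmt3a(+/-) value of 40.1 CPM. Of the 19 genes, 4 had all Dnmt3a(+/-) tumors lower and 0 all higher on TMM, beside 6.32% and 6.12% of all genes tested. They were *Ppif*, *Arf4* and the copies *Gm9780* and *Plac9b*, which share most of their words. On total counts alone only *Gm9780* stayed apart, at 31.5 CPM or more against 24.1 CPM or less. The 10 tested genes of copied families had a median log2 difference of -0.55, with 9 of them lower, and the 9 other tested genes a median of -0.07, with 6 lower. The 10 are not separate observations, since copies of a family divide shared reads and *Tmem254a* and *Tmem254b* had the same counts.

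When the copies of each family were added together, the *Plac9*-like family stood at 55.96, 47.9 and 106 CPM in the Dnmt3a(+/+) tumors and at 36.2, 13.8, 37.0 and 35.6 CPM in the Dnmt3a(+/-) tumors. The groups did not overlap, on TMM or on total counts alone, beside 6.32% of single genes with all Dnmt3a(+/-) tumors lower on TMM, and the log2 difference was -1.19 (SE 0.40, edgeR with Benjamini-Hochberg adjustment, adjusted p = 0.403). The *Tmem254* sum differed by -0.39 (SE 0.20, adjusted p = 0.515 by edgeR) and the *Anxa11* sum by -0.44 (SE 0.21, adjusted p = 0.483 by edgeR), both without overlap on TMM but with overlap on total counts alone. For none of these sums did the difference pass the threshold. *Slmap* and *Zmiz1*, genes on the flanks, keep 100% and 96.9% of their 100-mers to themselves. They differed by -0.14 (SE 0.17) and 0.04 (SE 0.21) on the log2 scale, and were picked after their values were seen. Other flank genes differed more, such as *Ppif* (-0.86, SE 0.22), *Arf4* (-0.25, SE 0.14), *Zcchc24* (0.69, SE 0.60) and *Dnah12* (0.53, SE 0.71).

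**Figure D5:**
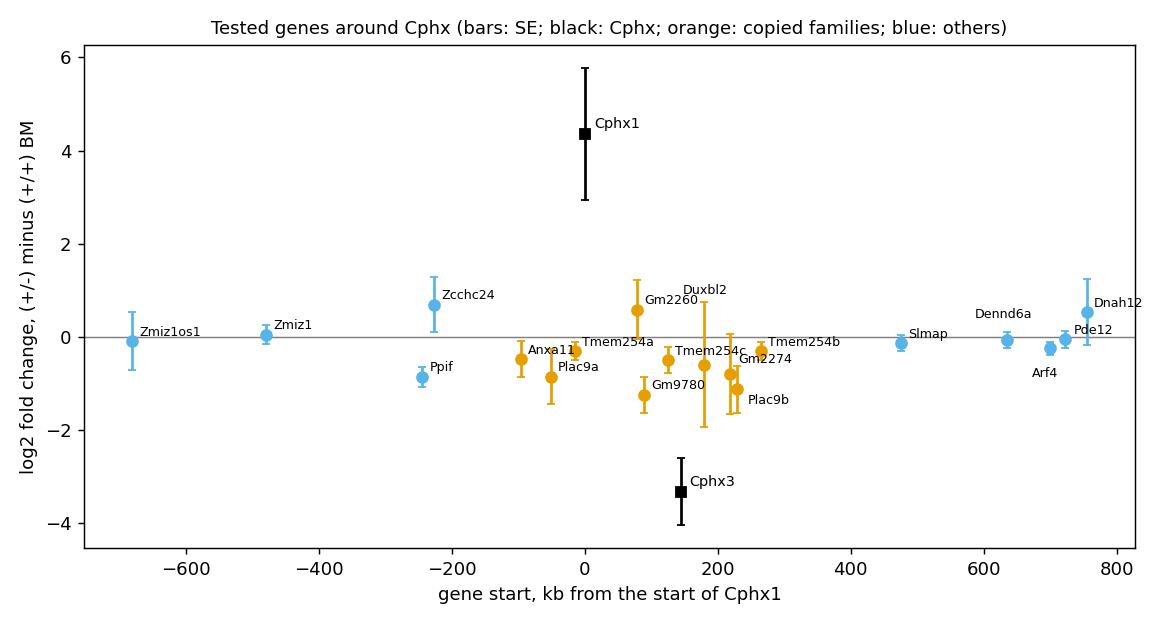
Log2 difference between the Dnmt3a(+/-) and Dnmt3a(+/+) groups (vertical axis, bars of 1 SE) against the start of each tested gene in kb from the start of *Cphx1* (horizontal axis), with *Cphx1* and *Cphx3* in black, copied families in orange and other genes in blue. *Cphx1* at 4.36 and *Cphx3* at -3.33 lie outside the range of the 19 other genes, -1.25 to 0.69. The *Cphx* genes were chosen by these differences and the others by position, so nothing is read from that gap.

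Genes that share the known setting of the *Cphx* genes were looked at next. Of 40 genes of the oocyte and early embryo, 39 had a row, 17 were at 0 in every tumor and 2 passed the filter. These were *Tle6*, a component of the maternal subcortical complex, at 1.27 ± 0.0943 CPM (SD, n = 3) against 1.202 ± 0.526 CPM (SD, n = 4), and *Duxbl2* (above). None was called by edgeR or DESeq2, against 0% and 1.9% of all genes. At an unadjusted p under 0.05 by edgeR there were 0, against 11.03% of all genes tested. With 2 tested genes, 0 is near these shares, so nothing is read from it about the list. The *Tle6* log2 difference was -0.08 (SE 0.43, edgeR with Benjamini-Hochberg adjustment, adjusted p = 0.969). The summed level of the list was 2.08 to 2.66 CPM in the Dnmt3a(+/+) tumors and 2.17 to 3.24 CPM in the Dnmt3a(+/-) tumors. The 6 oocyte markers together stayed at or under 0.569 CPM in every tumor, with *Figla*, a transcription factor of oocytes, at 0. The summed levels of both lists overlapped between the groups.

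Germline genes that promoter methylation is known to keep silent in body tissues were likewise low. Of 20 such genes, 6 were at 0 in every tumor and 2 passed the filter, *Brdt*, a testis bromodomain protein, and *Tdrd1*, a tudor protein of the piRNA pathway. The log2 difference was -0.20 (SE 0.50, edgeR with Benjamini-Hochberg adjustment, adjusted p = 0.920) for *Brdt* and -0.50 (SE 0.88, adjusted p = 0.880) for *Tdrd1*. None was called by edgeR or DESeq2, against 0% and 1.9% of all genes, and 0 had an unadjusted p under 0.05 by edgeR, against 11.03%. Here too only 2 genes were tested, so nothing is read from these zeros. The list summed to 2.36 to 5.21 CPM against 2.14 to 5.09 CPM.

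The genes whose log2 CPM (prior count of 2) ran most like the members over the 7 tumors were picked among 15808 tested genes, as a description, since with so few tumors high values are reached by many genes. For *Cphx1* these were *Dip2c* (Pearson r = 0.93), *Fntb* (0.92), *Epha4* (0.92), *Fam19a2* (0.91) and *Flt4* (0.90). For *Cphx3* they were *Gm37123* (r = 0.98), *Adck5* (0.97), *Itfg1* (0.97), *Impa2* (0.96) and *Nus1* (0.96). Their likeness to the members is what chose them, and nothing further is read from their values.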

How the data were processed

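Whole colon tumors of 4 mice with Dnmt3a(+/-) BM and 3 with Dnmt3a(+/+) BM were profiled by poly(A) RNA sequencing. The authors trimmed reads with Trimmomatic, aligned them to mm10 with STAR and estimated gene counts with RSEM. The deposited values are these estimated counts, whole numbers without normalization, 1 column per tumor.

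The quasi-likelihood test of edgeR 4.0.16 (R 4.3.3), without covariates, set the groups against each other after TMM scaling and filterByExpr, with Benjamini-Hochberg adjustment over all genes tested. Calls required an absolute log2 difference over 1 with an adjusted p under 0.05. The SE is the log2 difference divided by the square root of F. Alternatives were DESeq2 1.42.0, other scalings, no filter, a prior count of 2, the experiment as covariate, the replicate number as a block, BMT18 alone, each tumor left out, and words of 50, 75 and 150 bases. Family sums, ratios of mean CPM without each tumor, and overlap on total counts alone were added after seeing the data. Sequences came from GENCODE M21 (GRCm38) and RefSeq promoters (GRCm38.p6). Families were genes within 500 kb linked by 100-mers shared between genes that do not overlap. *Cphx2* and *Cphx3*, which overlap, were linked through *Cphx1*. The table gives symbols for 42462 of 43346 genes, and 18994 genes were at 0 in all tumors. The depth of 38472738 to 64314999 counts per tumor puts 3 counts at 0.0468 to 0.0918 CPM.

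Named genes were the 3 members, the genes within 500 kb, *Dnmt3a*, the tested genes of each list (at most 3), and the 5 genes most correlated with each tested member. The members and lists were chosen with earlier results of these data known. *Slmap*, *Zmiz1*, *Figla*, *Cdx1* and *Cdx2* were singled out after their values were seen. Both count tests were first tried on simulated data with known changes.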

Additional observations from a re-analysis of the deposited data

Results flagged for a closer look

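Among 27 groups of 4 Dnmt3a(+/-) tumors examined (*Cphx* genes, genes around them and family sums), 3 had a tumor far from the others by Dixon's 95% criterion, where chance gives 1.35. *Duxbl2* stood at 0.63 CPM in Dnmt3a(+/-) tumor 3, with the other tumors of that group at 0.0499, 0.0204 and 0.0541 CPM. The same tumor has 87.1% of its *Cphx* counts on *Cphx1*, and in it 31 of the 33 *Duxbl* counts were on *Duxbl2*, a gene without a 100-mer of its own.

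The sum of the *Plac9*-like genes stood at 13.75 CPM in Dnmt3a(+/-) tumor 2, with the other tumors of that group at 36.2, 37.0 and 35.6 CPM. The *Tmem254* sum stood at 148.6 CPM in the same tumor, with the others at 237, 225 and 232 CPM. This tumor also had the lowest *Cphx* sum in CPM, 1.43, and the highest fibroblast and endothelial marker sums, 988 and 107 CPM. The part of these marker levels in the low values was not tested.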

How the results depend on the processing

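The fitted log2 differences of *Cphx1*, *Cphx3* and the sum kept their direction and moved by less than 1 SD between tumors under every alternative that gave a value. *Cphx1* ranged from 3.77 (prior count of 2) to 4.50 (total counts only), *Cphx3* from -3.68 (BMT18 alone) to -2.82 (experiment as covariate), and the sum from -2.48 (BMT18 alone) to -1.62 (experiment as covariate). Without each tumor in turn, *Cphx1* ranged from 3.89 to 5.61 over 4 fits, *Cphx3* from -3.81 to -2.94, the sum from -2.38 to -1.58, and the *Cphx2* bound from -4.39 to -2.97 over 6 fits. *Cphx1* did not pass the filter without Dnmt3a(+/-) tumor 1, 3 or 4, nor in BMT18 alone, so no fitted value exists there. The *Cphx2* bound was -3.45 on the log2 scale, -3.43 with DESeq2's size factors and -3.25 with total counts only. It has no value without Dnmt3a(+/+) tumor 3 or in BMT18 alone, where all counts are 0, and no filter, another prior count, a covariate, the block or DESeq2 would not alter a bound set from counts, so these were not run.

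The count of genes called was 0 under every edgeR setting and 302 with DESeq2. The cause of that gap was not tested. The counts of called genes around the cluster, in the oocyte and embryo list and in the germline list were 0 under every setting run. With copies of a family summed, an alternative chosen after seeing the data and run only for the genes around the cluster, that count was 0 too. The share of words in common at 50, 75 and 150 bases was 78.8% to 79.5% for *Cphx1*, 88.1% to 88.7% for *Cphx2* and 99.8% for *Cphx3*.

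With the replicate number as a block, the log2 differences were 4.04 for *Cphx1*, -3.25 for *Cphx3* and -1.62 for the sum, and 0 genes were called. The labels do not say what a shared number stands for. With each gene's group mean subtracted from its log2 CPM, same-numbered tumors correlated at 0.57, 0.07 and -0.04. These values describe departures from the group means, not whole expression profiles. Not every tumor correlated best with its own number, so the block was not used further. Depth limits *Cphx2* and the *Duxbl* rows, which have at most 48 counts in any tumor, and the division of reads among copies limits every single row of a family.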
